A study of Mus musculus with 8 samples.

Results

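The genes described here are 10 cornified envelope and transglutaminase genes. Ivl, Lor, Flg and Cnfn encode envelope proteins, and Sbsn and Krtdap encode secreted proteins. Evpl and Ppl encode plakins, and Tgm1 and Tgm3 encode transglutaminases. The 10 genes were found by gene symbol among the 52325 genes of the count table. Of the 10, 7 had enough counts in enough libraries to be tested, as did 18174 of the 52325 genes. The libraries were RNA-seq of laser-captured endometrium from frozen uterine sections of 4 WT and 4 Thra1PV/+ mice, all synchronised at metestrus. Thra1PV/+ mice carry on 1 Thra allele the PV mutation, which makes a dominant-negative thyroid hormone receptor alpha 1 in every tissue that uses the gene, and WT mice carry no PV allele. The ages and strain of these 8 mice are not given in the sources used here. With 4 mice and 4 libraries of each genotype, a library stands for 1 mouse, although the labels number replicates and name no animals.

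The cornified envelope is the protein shell that replaces the plasma membrane of a squamous cell at the end of its differentiation. Envoplakin and periplakin form a scaffold under the membrane, involucrin is laid on it early, and transglutaminases then crosslink these proteins with later ones such as loricrin. Loricrin, filaggrin and the late cornified envelope proteins are best known from the keratinising epidermis. Their levels in other squamous linings of the mouse were not examined here. The normal endometrial lining is a simple columnar epithelium and makes no cornified envelope.

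Total estimated counts ran from 48791602 to 59818887 per library, so that 3 counts, taken here as the floor of detection, stood for 0.0525 to 0.0628 CPM, the depth-scaled count used throughout. Thra, the gene that carries the mutation, had 80.1 ± 34.2 CPM in the mutants and 78.0 ± 33.7 CPM in WT (SD, n = 4), a log2 fold change of 0.04 ± 0.39 (SE). Gene counts do not separate PV from normal Thra transcripts, so this value does not check the genotypes. The 6 markers of stratified squamous epithelium, Krt5 among them, summed to 2382 to 3852 CPM in the mutants and 1.66 to 36.0 CPM in WT, and all 6 were called higher in the mutants. The 6 markers of simple columnar epithelium, which the endometrium should hold, were present in every library, with 1594 to 4229 CPM in the mutants and 1750 to 4872 CPM in WT. WT library 1 stood apart by its smooth muscle markers, which summed to 12640 CPM there and to 125 to 1094 CPM in the other 7 libraries. In bulk RNA, more squamous cells and more RNA of these genes per cell cannot be told apart.

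Calls were made with edgeR's quasi-likelihood test, with Benjamini-Hochberg adjustment over all tested genes, where the genotypes differed at least 2-fold and the adjusted p did not exceed 0.1. By this rule 2 of the 7 tested genes, Ivl and Evpl, were called higher in the mutants and 0 were called lower. Over all tested genes 0.924% were called higher and 0.066% lower. At an unadjusted p under 0.05, Tgm1 and Cnfn were added, which made 4 higher and 0 lower, beside 5.05% and 4.72% of all tested genes. In Ivl, Evpl and Tgm1 all 4 mutant libraries lay above all 4 WT libraries, as they did in 3.55% of tested genes, and in 0 members they lay below, as in 2.49%. DESeq2, the tool of the study's own methods, called 4 members higher (Ivl, Evpl, Tgm1 and Cnfn) and 0 lower, against 2.57% and 1.01% of its tested genes. The median log2 fold change was 1.80 over the 7 members and -0.05 over all tested genes, and 6 of the 7 values were positive. Leaving out any 1 library left 2 members called higher and 0 lower.

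**Figure D1:**
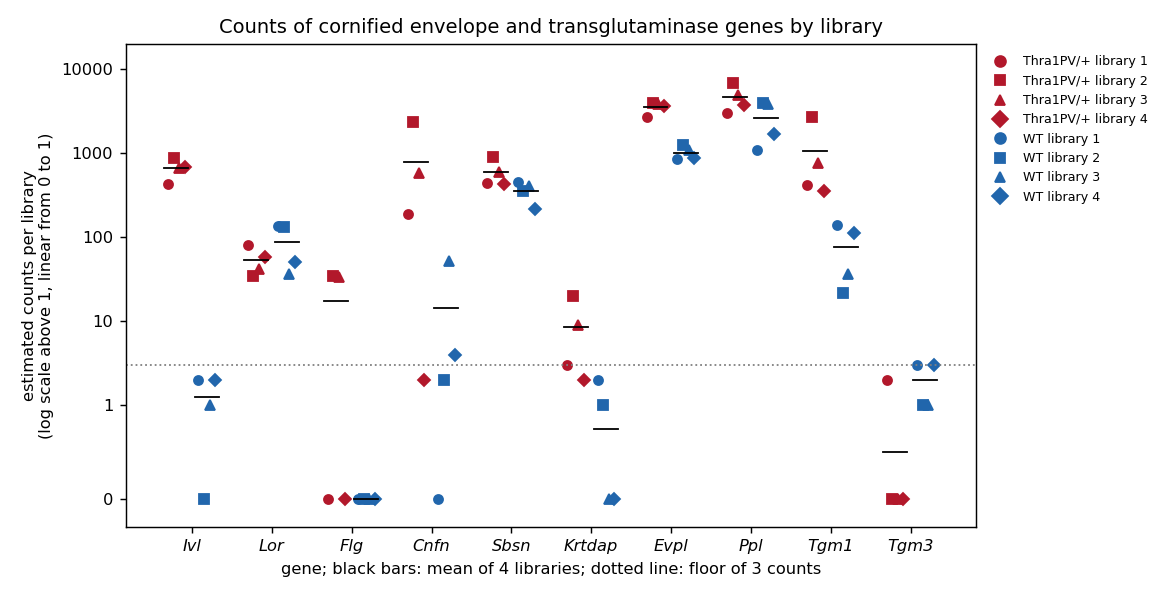
Estimated counts of the 10 genes (horizontal axis) in each of the 4 Thra1PV/+ (red) and 4 WT (blue) libraries, on an axis that is logarithmic above 1 and linear below, with black bars at the group means and a dotted line at the floor of 3 counts. Ivl stands at 432 to 891 counts in the mutants and 0 to 2 in WT, Evpl is separated between the genotypes, Tgm3 lies at or under the floor everywhere, and Cnfn spreads over 2 to 2388 counts among the mutants.

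The promoters of 8 of the 10 genes are in the RefSeq promoter table (GRCm38.p6), which has none for Evpl and Ppl. The 150 bases before the RefSeq start site follow for 4 genes that ended at different points in these libraries: Ivl, which was called higher; Lor and Sbsn, which were not; and Cnfn, which varied most among the mutants of the 7 tested genes. Each sequence is given on the strand of its gene, and capitals mark matches to TGANTCA, the binding motif of AP-1 (the Jun and Fos factors), and to TATAAA, the TATA box.
Ivl, chr3:92573736-92573885, minus strand: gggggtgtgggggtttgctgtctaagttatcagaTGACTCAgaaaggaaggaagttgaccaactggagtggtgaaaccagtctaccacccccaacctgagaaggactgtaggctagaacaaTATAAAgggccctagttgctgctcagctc
Lor, chr3:92083143-92083292, minus strand: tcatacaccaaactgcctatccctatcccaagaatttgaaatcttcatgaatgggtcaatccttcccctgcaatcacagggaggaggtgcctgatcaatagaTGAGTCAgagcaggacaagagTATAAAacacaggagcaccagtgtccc
Sbsn, chr7:30751321-30751470, plus strand: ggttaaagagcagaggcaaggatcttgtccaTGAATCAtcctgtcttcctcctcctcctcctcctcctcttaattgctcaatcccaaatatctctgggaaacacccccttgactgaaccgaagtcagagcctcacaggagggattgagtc
Cnfn, chr7:25369725-25369874, minus strand: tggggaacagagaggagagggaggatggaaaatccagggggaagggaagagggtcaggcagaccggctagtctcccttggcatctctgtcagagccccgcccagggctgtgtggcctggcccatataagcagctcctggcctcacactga

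The search covered the 250 bases before each start site, on both strands. TGANTCA was present for 5 of the 8 genes (Ivl, Lor, Flg, Sbsn and Krtdap) and in 6.75% of all 32851 promoters. TATAAA was present for Ivl, Lor, Flg, Krtdap and Tgm3, and in 12.4% of promoters. GGGCGG, the core of the SP factors' motif, was found for Cnfn and Tgm1 and in 32.7% of promoters. CACCC, the short core of KLF motifs, was found for 7 of the 8 genes and in 52.0% of promoters. The genes with TGANTCA include Ivl, which was called higher, and Lor and Sbsn, which were not. Tgm1, Cnfn and Tgm3 had no match in this window. The matches are descriptions of sequence and were not tested as binding sites.

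Involucrin is the rod-shaped precursor that is crosslinked first under the membrane. Ivl (ENSMUSG00000049128.7, chr3:92570902-92573735, GRCm38, minus strand) had 432, 891, 668 and 682 counts in mutants 1 to 4 and 2, 0, 1 and 2 counts in WT 1 to 4. Every mutant library lay far above every WT library, and all 4 WT libraries lay under the floor. The means were 12.9 ± 4.20 CPM in the mutants and 0.0250 ± 0.0192 CPM in WT (SD, n = 4), with a log2 fold change of 8.91 ± 0.64 (SE) and an adjusted p of 0.00143 by edgeR. With 5 WT counts in all, that fitted value depends on the prior count of the fit. The ratio of summed counts per depth was 525, with a 95% counting interval of 224 to 1617, and against 3 counts in every WT library the mutant mean was 221-fold higher. Intervals of this kind cover counting error only.

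Envoplakin joins the early envelope to desmosomes and keratin filaments. Evpl (ENSMUSG00000034282.3, chr11:116220559-116238077) had 2698, 3979, 3849 and 3705 counts in the mutants and 854, 1245, 1096 and 873 in WT. The groups did not overlap, and the spread within each was narrow, with a coefficient of variation of 21.1% among the mutants. The means were 68.5 ± 14.4 and 19.7 ± 2.93 CPM (SD, n = 4), a log2 fold change of 1.80 ± 0.19 (SE) with an adjusted p of 0.00721 by edgeR. Unlike Ivl, Evpl was well expressed in the WT endometrium.

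Periplakin is the partner of envoplakin in the same scaffold. Ppl (ENSMUSG00000039457.3, chr16:5086291-5132421) had 3031, 6917, 4986 and 3709 counts in the mutants and 1092, 4006, 3819 and 1695 in WT. WT libraries 2 and 3 lay within the mutant range, so the genotypes overlapped. The log2 fold change was 0.83 ± 0.46 (SE), with an adjusted p of 0.619 by edgeR, and Ppl was not called. The difference between the plakins' fold changes was not tested.

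Transglutaminase 1 is the membrane-bound enzyme that crosslinks involucrin and the plakins in stratified epithelia. Tgm1 (ENSMUSG00000022218.16, chr14:55700009-55713926) had 422, 2695, 766 and 352 counts in the mutants and 140, 22, 37 and 112 in WT. All mutants lay above all WT libraries, but mutant 2 stood well above the other 3 mutants, and the highest mutant was 8.87 times the lowest in CPM. The means were 21.1 ± 22.8 and 1.54 ± 1.14 CPM (SD, n = 4). The log2 fold change was 3.78 ± 0.92 (SE) with an adjusted p of 0.184 by edgeR, which missed the threshold, whereas DESeq2 gave 3.80 with an adjusted p of 0.000245. Without mutant 2 the log2 fold change was 2.68.

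Transglutaminase 3 is the enzyme of late epidermal and hair follicle differentiation. Tgm3 (ENSMUSG00000027401.9, chr2:130012349-130050399) had 2, 0, 0 and 0 counts in the mutants and 3, 1, 1 and 3 in WT. All 8 libraries were at or under the floor of 3 counts, so no fold is given and no difference was detectable at this depth. Of the other 6 transglutaminase genes (Tgm2, Tgm4, Tgm5, Tgm6, Tgm7 and F13a1), 3 were tested and 0 were called, with a median log2 fold change of -0.05. By an unadjusted p under 0.05, 1 was higher and 0 lower, beside 5.05% and 4.72% of all tested genes. By DESeq2 1 was called higher, beside 2.57% of its tested genes. That gene was Tgm5, an epidermal transglutaminase, which is named after its values were seen. Tgm5 had 519 to 787 counts in the mutants and 34 to 194 in WT, a log2 fold change of 2.69 ± 0.59 (SE) with an adjusted p of 0.128 by edgeR, and it was called without WT library 3. Tgm2, the widely expressed tissue transglutaminase, also named after its values were seen, had 1103 ± 415 CPM in the mutants and 1142 ± 674 CPM in WT (SD, n = 4), with a log2 fold change of -0.05 ± 0.47 (SE).

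Loricrin is the main protein of the mature epidermal envelope. Lor (ENSMUSG00000043165.7, chr3:92080271-92083142) had 80, 35, 42 and 59 counts in the mutants and 136, 131, 37 and 51 in WT. It was the tested member with a negative value, and its genotypes overlapped. The means were 1.02 ± 0.329 and 1.69 ± 0.926 CPM (SD, n = 4), a log2 fold change of -0.73 ± 0.48 (SE) with an adjusted p of 0.680 by edgeR. Leaving out each library in turn gave -0.97 to -0.40.

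Filaggrin binds keratin filaments in the granular layer of the epidermis and is made as a long repeated precursor. Flg (ENSMUSG00000102439.4, chr3:93273523-93293686) had 0, 35, 34 and 0 counts in the mutants and 0 in each of the 4 WT libraries. It did not pass the filter for testing, with counts in mutants 2 and 3 only. The mean over the 4 mutants was at least 6.01-fold higher than 3 counts in every WT library, although mutants 1 and 4 held no counts either. With a floor of 10 counts that bound was 1.80. DESeq2, which tested it, gave an adjusted p of 0.170. A pseudogene, Rplp0-ps1, lies within Flg on the same strand.

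Cornifelin is a small envelope protein of the upper squamous layers. Cnfn (ENSMUSG00000063651.11, chr7:25367620-25369724) had 190, 2388, 586 and 2 counts in the mutants and 0, 2, 52 and 4 in WT. It was high in 3 mutants and under the floor in mutant 4, which lay below WT libraries 3 and 4 and had as many counts as WT library 2. The means were 16.0 ± 22.2 and 0.289 ± 0.498 CPM (SD, n = 4), a log2 fold change of 5.79 ± 1.99 (SE) with an adjusted p of 0.381 by edgeR and of 0.0616 by DESeq2. The log2 fold change was 4.15 without mutant 2 and 8.63 without WT library 3, and edgeR did not call it in either.

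Suprabasin and keratinocyte differentiation-associated protein are secreted proteins of the suprabasal layers whose genes lie close together on chromosome 7. Sbsn (ENSMUSG00000046056.15, chr7:30751471-30756134) had 438, 901, 605 and 426 counts in the mutants and 455, 352, 411 and 218 in WT, with overlap. Its log2 fold change was 0.73 ± 0.35 (SE), with an adjusted p of 0.563 by edgeR. The gene Tmem147os overlaps it on the same strand, so part of its reads could be shared. Krtdap (ENSMUSG00000074199.7, chr7:30787896-30791097) had 3, 20, 9 and 2 counts in the mutants and 2, 1, 0 and 0 in WT, too few to be tested. The ratio of its summed counts per depth was 11.1, with a 95% counting interval of 3.50 to 56.6. Against 3 counts in every WT library the mutant mean was 2.91-fold higher, and it was 0.872 times a level of 10 counts in each. For Krtdap, mutants 1 and 4 were at or under the floor with all of WT. Dmkn, the secreted dermokine encoded between them, is named after its values were seen. It had 583, 2588, 2318 and 761 counts in the mutants and 71, 17, 188 and 366 in WT, a log2 fold change of 3.25 ± 0.97 (SE) with an adjusted p of 0.303 by edgeR and of 0.00845 by DESeq2.

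**Figure D2:**
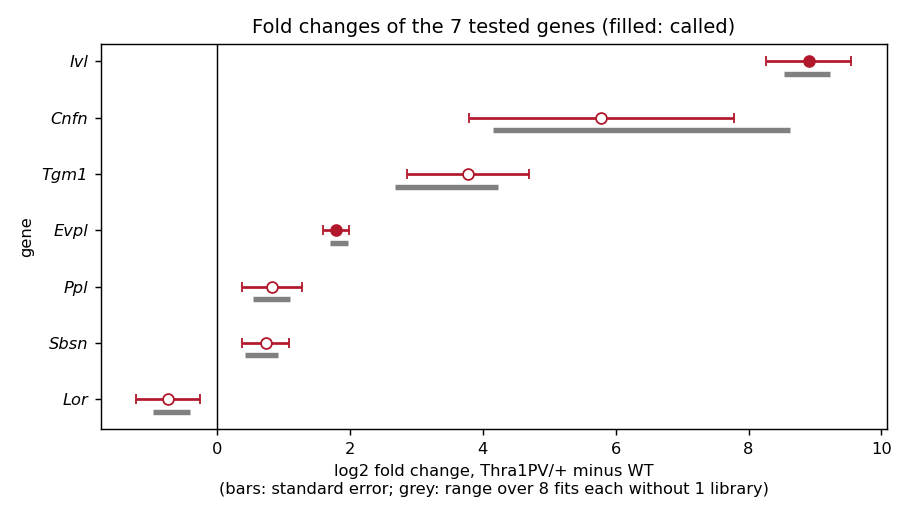
Log2 fold changes (horizontal axis, Thra1PV/+ minus WT) of the 7 tested genes, with standard errors as bars, filled points for called genes, and grey bars for the range over 8 fits that each left out 1 library. Ivl at 8.91 and Evpl at 1.80 are called with narrow ranges, Cnfn ranges from 4.15 to 8.63, and Lor stays below 0 in all 8 fits.

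Levels of different genes were compared per length, as CPM per kb of exons. In the mutants the mean levels were 22.2 for Cnfn, 13.2 for Ppl, 10.7 for Evpl, 6.71 for Ivl, 6.66 for Tgm1, 3.18 for Sbsn, 0.572 for Lor, 0.250 for Krtdap, 0.0187 for Flg and 0.00222 for Tgm3. Cnfn led through mutants 2 and 3, with a per-library range of 0.0487 to 67.4. Neighbours from Cnfn down to Sbsn in this order had overlapping library ranges, while each library of Sbsn was above each library of Lor. The ranges of Lor and Krtdap overlapped in part, at 0.399 to 0.826 and 0.0516 to 0.598. In WT the plakins led, with 7.42 for Ppl and 3.09 for Evpl, followed by 1.92 for Sbsn and 0.951 for Lor. The authors' tool scales TPM by transcript and not by all exons. The deposited TPM also had sorted values that differed by at most 0.2905 between libraries, as after quantile normalization. They gave over 1.5 times these values for 5 genes, and the part of each step in that was not tested. The mutant mean was 60.5 TPM for Cnfn, 10.2 for Sbsn, 2.01 for Krtdap, 1.77 for Lor and 0.149 for Flg. For Flg, the 35 and 34 counts of mutants 2 and 3 stood at 0.529 and 0.0659 TPM. On that scale Sbsn stood above Ivl, at 6.28 TPM, and Krtdap above Lor. In WT the TPM means were 7.98 for Ppl, 4.76 for Sbsn, 3.71 for Lor and 3.50 for Evpl, so that Sbsn and Lor stood above Evpl there.

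Krt5, the keratin of the basal squamous layer, served as a yardstick of squamous tissue in each mutant library. A share of Krt5 need not be squamous RNA alone, because some members were also expressed in WT, where Krt5 was low. Mutant and WT means were 13.2 and 7.42 CPM per kb for Ppl and 10.7 and 3.09 for Evpl. They were 3.18 and 1.92 for Sbsn and 0.572 and 0.951 for Lor. How much of these came from other cells was not tested. Krt5 rose from 8.48 ± 7.30 CPM in WT to 1461 ± 446 CPM in the mutants (SD, n = 4), a log2 fold change of 7.43 ± 1.10 (SE) with an adjusted p of 0.0268 by edgeR, and the call was lost without WT library 4 (adjusted p 0.115). Per kb, Ivl was 1.02% ± 0.174 of Krt5, with 1.01%, 1.24%, 0.808% and 1.02% in mutants 1 to 4 (SD, n = 4). Evpl was 1.66% ± 0.204 of Krt5 and Ppl 1.97% ± 0.505. The highest mutant was 1.53 times the lowest for Ivl, 1.36 times for Evpl and 1.74 times for Ppl, beside 1.35 times for Krt14, the basal partner of Krt5, which stood at 38.2% ± 4.68.

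Tgm1 was 0.600%, 2.27%, 0.563% and 0.318% of Krt5 in mutants 1 to 4, a 7.13-fold range. Cnfn was 1.19%, 8.85%, 1.90% and 0.00796%, a 1112-fold range that ends at the 2 counts of mutant 4. Sbsn was 0.483% ± 0.149 and Lor 0.101% ± 0.0702 of Krt5 (SD, n = 4), Krtdap was 0.0344% on average, and Flg and Tgm3 did not exceed 0.00495% and 0.00218%. The suprabasal epidermal keratins Krt10 and Krt1 stood at 0.924% ± 0.396 and 0.103% ± 0.0275 of Krt5. On the deposited TPM, an alternative added after these values were seen, several shares were more than 1.5 times as high. Mean shares of Krt5 were then 7.40% for Cnfn, 1.31% for Sbsn, 0.254% for Krtdap and 0.245% for Lor, and Flg reached 0.0641% in mutant 2. Krt10 and Krt1 stood at 2.12% and 0.201% on that scale. The shares of Ivl, Evpl, Ppl and Tgm1 were 0.808%, 1.45%, 1.76% and 1.08%, and the highest mutant was 1.94, 1.27, 1.89 and 7.91 times the lowest.

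**Figure D3:**
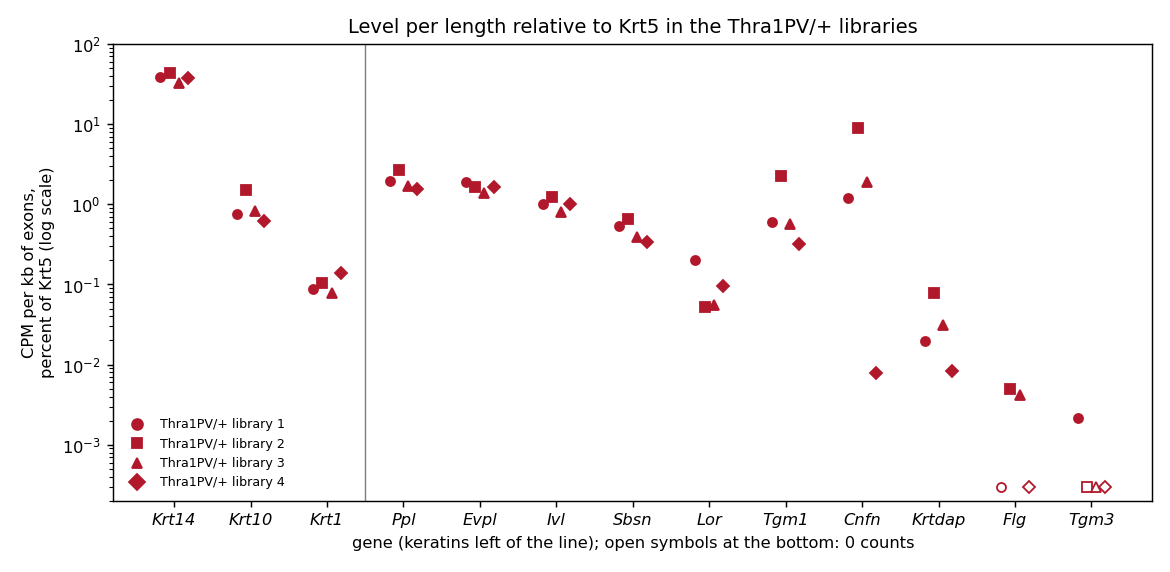
CPM per kb of exons as a percent of Krt5 (logarithmic vertical axis) for 3 keratins and the 10 genes (horizontal axis) in each of the 4 Thra1PV/+ libraries, with open symbols at the bottom for 0 counts. Ivl, Evpl and Ppl lie close together across the 4 mutants near 1% to 2.67%. Cnfn spans 0.00796% to 8.85%, and Flg and Tgm3 lie at the bottom. Ppl, Evpl, Sbsn and Lor were also expressed in WT, so their shares need not be squamous RNA alone.

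The mutant libraries differed in how many of these genes they held. Above 3 counts were 7, 9, 9 and 6 of the 10 genes in mutants 1 to 4, and 5, 5, 6 and 6 in WT 1 to 4. Mutant 2 was the highest of the mutants for 8 of the 10 genes, and for 6 of the 7 tested ones, while it was the highest mutant for 27.3% of all tested genes. Mutant 2 also held the highest neutrophil markers, which summed to 738 CPM there, to 79.6 to 304 CPM in the other mutants and to 9.71 to 145 CPM in WT. All 6 neutrophil markers were tested and 0 were called. Mutants 2 and 3 had the lowest sums of endometrial stroma markers, 319 and 391 CPM against 1174 and 563 CPM in mutants 1 and 4, with 549 to 1567 CPM in WT. They also had the lowest smooth muscle sums, 125 and 151 CPM against 308 and 638 CPM. Of the 6 markers in each of these lists 0 were called. Epithelial markers were highest in mutants 2 and 3. Their squamous sums were 3323 and 3852 CPM, against 2382 and 2762 CPM in mutants 1 and 4. Columnar sums were 3450 and 4229 CPM against 1594 and 3054 CPM. Uterine gland sums were 9844 and 11310 CPM against 4586 and 8566 CPM, with 1434 to 16034 CPM in WT. The part of the neutrophil, stroma, muscle and epithelial content in the values of mutants 2 and 3 was not tested. Among WT, library 3 held the highest sum of squamous markers, 36.0 CPM, and the highest Cnfn count.

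A wider list held 38 envelope precursor genes, without the small proline-rich family. Of these, 11 were tested and 0 were called, beside 0.924% higher and 0.066% lower over all tested genes. At an unadjusted p under 0.05, 7 were higher and 0 lower, beside 5.05% and 4.72%. The median log2 fold change was 1.02. In 3 of the 11 the genotypes did not overlap, all higher in the mutants, beside 3.55% of all tested genes. DESeq2 tested more of the 38 genes than edgeR did and called 5 higher (Rptn, Crnn, Csta1, Dmkn and Scel), beside 2.57% of its tested genes. Rptn and Crnn were not among the 11 that edgeR tested. Of the 38 genes, 12 had no counts in any library and could not be tested. The named genes of this list were chosen after their values were seen. Scel, the envelope protein sciellin, had 1149, 2227, 1045 and 655 counts in the mutants and 98, 158, 521 and 56 in WT, with a log2 fold change of 2.61 ± 0.74 (SE) and an adjusted p of 0.274 by edgeR. Crnn, cornulin of moist squamous linings, had 7, 113, 80 and 22 counts in the mutants and 0 in each WT library. It did not pass the filter of the edgeR test and was called by DESeq2 with an adjusted p of 1.65e-06.

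Some late genes of the list ranked the mutants much as Cnfn did. Crct1, a cysteine-rich C-terminal protein gene, had 83, 1445, 520 and 0 counts in mutants 1 to 4 and 0, 0, 22 and 7 in WT. Cdsn, the corneodesmosin that holds cornified cells together, had 0, 724, 302 and 0 counts in the mutants and 6 to 25 in WT. Kprp had 3, 234, 140 and 0 counts in the mutants and 0, 0, 37 and 1 in WT. In each of these 3 genes mutant 2 was highest, mutant 3 next and mutant 4 at 0, and WT library 3 was above the other WT libraries.

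The late cornified envelope genes are named for the last layers of the epidermis, and their copies are so alike that single counts are uncertain. Of the 6 Lce3 genes, 2, 6, 6 and 0 exceeded 3 counts in mutants 1 to 4, with 17, 622, 175 and 0 counts in sum. In WT 1 to 4, 0, 0, 4 and 1 of them did, with 0, 0, 46 and 5 counts in sum, so WT library 3 held more than mutants 1 and 4. Of the 12 Lce1 genes, those of normal epidermis, 1 exceeded 3 counts, with 6 counts in mutant 2, and no other library held more than 1 count over all 12. Over the whole list of 38, 15, 23, 21 and 13 genes exceeded 3 counts in the mutants and 11, 11, 18 and 12 in WT, and 12 genes had no counts anywhere. The hair follicle and skin appendage markers, 3 of 7 of them at the floor in every library, summed to 6.52 to 14.0 CPM in the mutants and 2.67 to 8.45 CPM in WT. Of the 3 tested, 1 was called higher, beside 0.924% of all tested genes. It was the hair keratin gene Krt33b, named after its values were seen. Krt33b had a mean of 0.557 CPM in the mutants and 0.00523 CPM in WT, with an adjusted p of 0.0181 by edgeR. Hoxa13 and Hoxd13, which mark the cervix and vagina, summed to 0.0609 to 0.143 CPM in the mutants and 0.0995 to 0.251 CPM in WT. Of these 2 genes 0 were tested and 1 was at the floor in every library, so no difference is read from the sums.

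**Figure D4:**
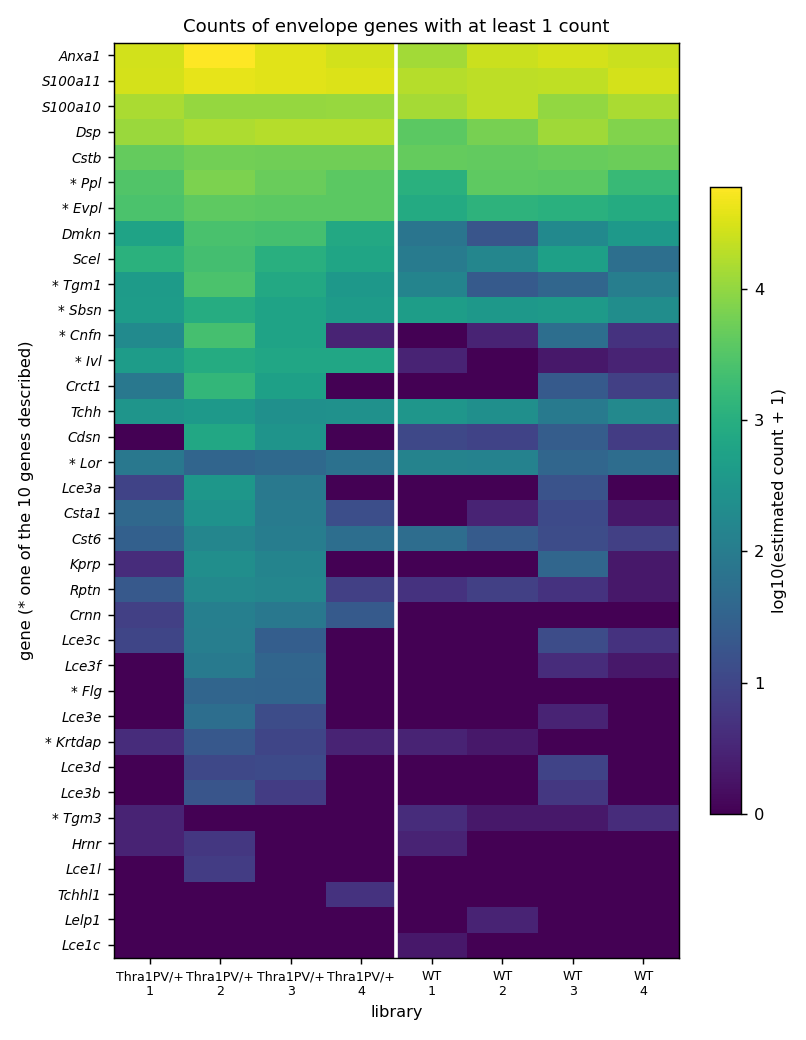
Estimated counts, as colour on a log10(count + 1) scale, of the 36 envelope and transglutaminase genes (vertical axis) with at least 1 count in any of the 8 libraries (horizontal axis), from the 10 genes described (starred) and the 38 other precursors, ordered by total counts. Ivl is dark in all 4 WT libraries and bright in all 4 mutants, while Cnfn, Crct1, Cdsn and the Lce3 genes are brighter in mutants 2 and 3 than in mutant 4.

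Envelope precursors are processed by proteases before and after crosslinking. Of 27 listed genes for such proteases and their inhibitors, 20 were tested. Of the 20, 2 were called higher and 0 lower, beside 0.924% and 0.066% of all tested genes, and the median log2 fold change was 0.36. Casp14, the caspase that cuts filaggrin, had 19, 88, 50 and 58 counts in the mutants and 1, 1, 4 and 1 in WT, a log2 fold change of 4.83 ± 0.72 (SE) with an adjusted p of 0.0268 by edgeR. Asprv1, a filaggrin-processing aspartic protease of the granular layer, had 358, 1549, 1438 and 618 counts in the mutants and 113, 101, 118 and 210 in WT. Its log2 fold change was 2.87 ± 0.57 (SE) with an adjusted p of 0.0905. The Asprv1 call was lost in 7 of the 8 fits without 1 library and the Casp14 call without WT library 4 (adjusted p 0.114), which left 0 calls in that fit.

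The transcription factors listed here regulate squamous barrier genes, and not all of them are activators. Of 26 listed factors, all were tested, and 7 were called higher and 0 lower, beside 0.924% and 0.066% of all tested genes. The median log2 fold change was 0.47. At an unadjusted p under 0.05, 10 were higher and 1 lower, beside 5.05% and 4.72% of all tested genes. DESeq2 called 8 higher and 1 lower, beside 2.57% and 1.01% of its tested genes. The lower factor was Klf9, named after its values were seen. The study describes Klf9 as responsive to thyroid hormone and as a negative regulator of squamous differentiation. Klf9 had 879, 177, 275 and 241 counts in the mutants and 2833, 2134, 539 and 815 in WT. Scaled by depth, the overlap was between mutant 1 and WT library 3. Its log2 fold change was -2.02 ± 0.65 (SE), with an adjusted p of 0.351 by edgeR and of 0.0524 by DESeq2. The 4 called factors with the smallest adjusted p were Tfap2a, Trp63, Tfap2c and Grhl1. Trp63, the master factor of stratified epithelium, had a log2 fold change of 6.11 ± 0.53 (SE) with an adjusted p of 0.00333 by edgeR. For Tfap2a, an AP-2 factor of the early epidermis, the log2 fold change was 6.05 ± 0.37 (SE) with an adjusted p of 0.00113, and for Tfap2c, its relative, it was 3.97 ± 0.37 with an adjusted p of 0.00394. Grhl1, a grainyhead factor of desmosome and envelope genes, rose by 3.35 ± 0.40 on the log2 scale with an adjusted p of 0.0129. These 4 were called in every fit without 1 library.

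Of 16 listed layer keratins 14 were tested, and 6 were called higher and 0 lower, beside 0.924% and 0.066% of all tested genes. In 10 of the 14 the genotypes did not overlap, all higher in the mutants, beside 3.55% of all tested genes. The median log2 fold change was 4.56. The called genes were Krt5, Krt14, Krt15 and Krt17 of basal or activated squamous cells, Krt78, and Krt13 of moist stratified linings, of which Krt13 is named outside the rule. Leaving out WT library 4 left 1 keratin called. Krt16, Krt6b and Krt6a, named after their values were seen, were not called by edgeR. Their log2 fold changes were 6.51 ± 1.49, 4.67 ± 1.57 and 4.43 ± 1.36 (SE). Each was higher in the mutants without overlap, and DESeq2 called each higher. Krt1 and Krt10, the keratins of the epidermal spinous layer, had smaller values that missed the threshold. Krt1 had 87, 172, 147 and 217 counts in the mutants and 39, 46, 76 and 12 in WT, a log2 fold change of 1.83 ± 0.54 (SE) with an adjusted p of 0.303 by edgeR and of 0.0191 by DESeq2. Krt10 had 353, 1192, 758 and 451 counts in the mutants and 454, 364, 415 and 299 in WT, with a log2 fold change of 0.86 ± 0.41 (SE).

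Ivl, Lor and Flg share the epidermal differentiation complex on chromosome 3. From Lor to Flg (chr3:92080271-93293686) the annotation lists 75 genes, of which 36 had no counts in any library and 16 were tested. Ivl was the single call among the 16, beside 0.924% of all tested genes called higher and 0.066% lower. Of the 16, 14 had positive log2 fold changes, with a median of 1.87. Most of them were small proline-rich genes, whose copies share reads. The shorter stretch from Sbsn to Krtdap (chr7:30751471-30791097) lists 4 genes, of which 3 were tested and 0 called.

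Genes whose log2 CPM ran most alike over the 8 libraries are given for the 3 members with the most counts, as Pearson's r, which here includes the genotype difference. Evpl ran most like Muc15, a membrane mucin (r = 0.996), Lgals7, a galectin of stratified epithelia (r = 0.994), Ephx3, an epoxide hydrolase (r = 0.993), and Mst1 (r = 0.990), all 4 of them called higher in the mutants. Ppl ran most like Olfr607, D430013B06Rik, Arfgap2 and Pde7a (r = 0.954 to 0.971). Tgm1 ran most like Fscn2, Siglecf, Xlr4b and F730043M19Rik (r = 0.974 to 0.991). For Ivl and Cnfn, added after their values were seen, the nearest genes were S1pr5 (r = 0.997) and Crct1 (r = 0.986). With 8 libraries and 18174 genes, values near 1 arise for many genes, and they are given without a test.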

How the data were processed

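The members and gene lists were chosen with earlier results of these data known. Per the labels and the study's methods, the authors prepared stranded mRNA libraries from laser-captured endometrium, sequenced them paired-end, trimmed reads with Trimmomatic and quantified genes with salmon for mm10; versions and the annotation release are not given in the sources used here. The authors deposited estimated counts per gene, not normalized (71.0% to 78.5% of them whole numbers per library), and TPM, whose sorted values differed by at most 0.2905 between libraries, as after quantile normalization, which their methods do not describe. In the deposited tables, 1 per-sample column matched no sample and was not used.

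Estimated counts were rounded to whole numbers. Genes passed filterByExpr (minimum count 10, minimum total 15), libraries were scaled by TMM, and genotypes were compared with edgeR 4.0.16 in R 4.3.3, with DESeq2 1.42.0 and limma 3.58.1 as alternatives; the procedure was tested on simulated data. CPM were divided by exon length from GENCODE M21 (GRCm38), whose identifier version differed for Ppl. Symbols were found for 52220 of 52325 identifiers. At 3 counts or fewer a value was treated as at the floor, and counting intervals are 95% exact intervals of the ratio. Promoters are from RefSeq GRCm38.p6. Named genes were all members, up to 4 called genes per list with the smallest adjusted p, Krt5, Krt14, Krt1, Krt10, Thra, and the 4 genes nearest to each of the 3 members with the most counts; others are marked as named after their values were seen. Alternatives were other tools, scalings, filters, thresholds, pseudocounts of 1 and 0.1 on log2 TPM, a replicate block, and leaving out each library.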

Additional observations from a re-analysis of the deposited data

Results flagged for a closer look

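Casp14, the caspase that cuts filaggrin, had a log2 CPM of -3.08 in WT library 3, whereas the other WT libraries lay between -4.14 and -4.07. The gap to the nearest library took 0.933 of the range of the group, above Dixon's limit for 4 samples. In counts this is 4 reads against 1 in each of the others, so the value stands near the floor. Chance marks about 1 in 20 groups, which is 2 of the 40 groups of 4 libraries examined, and this was the single value marked.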

How the results depend on the processing

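Ivl and Evpl were called higher in every alternative that could test them, and Lor, Ppl and Sbsn kept their direction without a call in all of theirs. Ivl could not be tested when 10 counts were required in every library, and on log2(TPM + 1) its log2 fold change was 2.77. Members called higher numbered 4 by DESeq2 and 4 at an unadjusted p under 0.05, and 1 with at least 10 counts in every library, where the median over members was 0.84. With 1 library left out they stayed at 2 higher and 0 lower, with 3 to 4 members not overlapping and a median of 1.71 to 1.97. The other precursors numbered 5 by DESeq2, 1 by limma voom and 7 at an unadjusted p under 0.05 (0 to 1 without 1 library). The other transglutaminases numbered 1 by DESeq2, upper quartile, library size, limma voom, log2(TPM + 1) and unadjusted p (0 to 1 without 1 library). The proteases numbered 7 by DESeq2 and at an unadjusted p, 1 at an adjusted p of 0.05, and 0 with at least 10 counts, on log2(TPM + 1) and with the replicate block (0 to 3 without 1 library). The factors numbered 11 at an unadjusted p, 10 of them higher, and 5 to 7 without 1 library. The keratins numbered 12 by DESeq2 and at an unadjusted p, 3 at an adjusted p of 0.05, 1 with at least 10 counts and 2 with the replicate block (1 to 6 without 1 library). The causes were not tested. Same-numbered libraries correlated at 0.269, -0.436, 0.340 and -0.159. These values cannot settle whether the numbers pair WT and mutant mice, and the labels do not say. With the replicate block 75 genes were called higher and 7 lower, in place of 168 and 12, and 2 members stayed called. By DESeq2 all genes gave 568 and 223 calls (2.57% and 1.01% of its tested genes), and 200 and 11 by library size. At an unadjusted p under 0.05, 5.05% of all tested genes were higher and 4.72% lower. All genes gave 253 and 58 calls by limma voom, 186 and 12 by upper quartile and 141 and 11 on log2(TPM + 1). With at least 10 counts in every library, 74 and 7 of 15654 tested genes were called. Against 10 counts in every WT library, in place of 3, the mutant means of Ivl and Krtdap came to 66.2 and 0.872 times that level, so that nothing is bounded for Krtdap there. Tgm3 and Krtdap were too low to be tested, and Flg did not pass the filter, with counts in mutants 2 and 3 only.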
